A study of Mus musculus with 6 samples.

Results

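The collecting duct is the kidney tubule that the nephron joins. The spots described here are the kidney spots with the most collecting duct RNA in each section, by the score below. In Visium, RNA is captured where the section lies on barcoded spots, so a spot is a small region of several cells and not 1 cell. In each library, spots with at least 1000 unique molecular identifiers (UMIs, 1 per captured RNA molecule) were scored by the mean of log1p(10000 × UMIs / total UMIs) over 5 genes, Aqp2, Hsd11b2, Scnn1g, Atp6v1g3 and Atp6v0d2. The spots at or above the 92nd percentile of this score in their own library were kept. This gave 1497 collecting duct spots out of 18684 spots with at least 1000 UMIs, and out of 19095 spots listed. By library there were 272 collecting duct spots in early treated 5m AS and 227 in late treated 5m AS, with 160 in 5m AS, 255 in 2m AS, 256 in the mixed female library and 327 in WT. Because the rule is a percentile, the share of spots was set at 8% in every library and is not a result.

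The series profiled frozen mouse kidney sections in Alport syndrome, in which inherited defects of type IV collagen weaken the glomerular basement membrane, and after a treatment labelled hEV. The AS groups carried the Col4a5 allele B6.Cg-Col4a5tm1Yseg, and the WT library came from B6C57 kidney. There were 6 libraries, with 1 library per group. The early treated and late treated 5m AS libraries came from AS kidneys at 5 months with hEV treatment, the 5m AS and 2m AS libraries from AS kidneys with no treatment listed, at 5 and 2 months, the mixed female library from wild-type and heterozygous females together, and the last from WT. The age of the WT and mixed female animals, the hEV dose and schedule, the meaning of early and late, and the number of animals behind each section are not stated in the labels or files. Since every group is 1 library, no difference below has a replicate check and no test was run. Ratios between libraries carry exact (Clopper-Pearson) 95% intervals that cover counting error only and leave out how animals and sections vary.

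The collecting duct holds a pair of epithelial cell classes. Principal cells take up water through the aquaporins Aqp2, which moves to the apical membrane under vasopressin, and Aqp3 on the basolateral side, and take up sodium through the epithelial channel ENaC (Scnn1a, Scnn1b and Scnn1g) under aldosterone. Hsd11b2 inactivates glucocorticoids so that aldosterone can act on its receptor Nr3c2. Intercalated cells handle acid and base with a vacuolar proton pump (V-ATPase), whose cell-type specific subunits include Atp6v1g3, Atp6v0d2, Atp6v1b1 and Atp6v0a4, and need the forkhead factor Foxi1. Type A intercalated cells secrete acid and carry the anion exchanger Slc4a1 on the basolateral side. Type B intercalated cells secrete bicarbonate through the apical exchanger pendrin, Slc26a4.

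Aqp2, Hsd11b2 and Scnn1g mark principal cells, and Atp6v1g3 and Atp6v0d2 mark intercalated cells. In the GENCODE M21 annotation of GRCm38, the same assembly as the mm10 build the submitters name, Aqp2 lies at chr15:99579055-99584547 on the plus strand and Atp6v1g3 at chr1:138273738-138289462 on the plus strand. Foxi1 lies at chr11:34204338-34208089, Slc26a4 at chr12:31519827-31559969 and Slc4a1 at chr11:102348824-102366203, all on the minus strand. All 5 are annotated as protein coding. Promoter sequences of a principal cell water channel and of a pair of intercalated cell pump subunits are shown as examples. Their levels in 5m AS over WT went in opposite directions, as described below. Aqp2 and Atp6v1g3 are score genes, so their levels are a description. The sequences are from RefSeq on GRCm38.p6, 250 bases before to 50 bases after the annotated start, on the plus strand, at chr15:99578806-99579105, chr1:138273488-138273787 and chr6:83742767-83743066. They were searched on both strands for the forkhead core TGTTTAC and its reverse complement GTAAACA, and a match is printed in capitals.
Aqp2: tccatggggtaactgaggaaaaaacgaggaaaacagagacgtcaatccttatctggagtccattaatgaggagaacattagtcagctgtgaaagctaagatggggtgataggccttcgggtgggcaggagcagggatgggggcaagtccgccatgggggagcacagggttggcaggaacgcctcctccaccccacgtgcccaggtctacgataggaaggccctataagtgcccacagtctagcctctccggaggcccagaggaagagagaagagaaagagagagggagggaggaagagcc
Atp6v1g3: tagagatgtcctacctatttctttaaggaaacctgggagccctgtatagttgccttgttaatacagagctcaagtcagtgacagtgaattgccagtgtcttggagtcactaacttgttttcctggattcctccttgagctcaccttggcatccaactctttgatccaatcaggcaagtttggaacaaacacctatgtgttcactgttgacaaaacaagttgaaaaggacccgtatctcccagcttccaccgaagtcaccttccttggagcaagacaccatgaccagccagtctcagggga
Atp6v1b1: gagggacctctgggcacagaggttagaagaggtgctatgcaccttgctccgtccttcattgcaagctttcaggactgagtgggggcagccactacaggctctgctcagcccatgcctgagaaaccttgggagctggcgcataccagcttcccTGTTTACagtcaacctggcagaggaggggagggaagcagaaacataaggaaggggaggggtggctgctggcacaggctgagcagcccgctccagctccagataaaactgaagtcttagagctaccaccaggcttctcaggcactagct
The Atp6v1b1 window held 1 match, starting at base 153, and the letters were not in the other two windows. Among all 32851 promoter windows of the same length, 3.65% held the motif. It was in 1 of the 22 windows found for 20 of the 31 intercalated cell genes, that of Atp6v1b1. Of the 28 windows found for 17 of the 23 principal cell genes, 3 held the motif. A match is a description of letters and not a binding site.

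Depth differed between the libraries. The collecting duct spots held 3489827 UMIs in all in early treated 5m AS and 4116052 in late treated 5m AS, with 3602385 in 5m AS, 5322536 in 2m AS, 4677767 in the mixed female library and 6823909 in WT. The median spot held 11988 UMIs in early treated 5m AS and 17338 in late treated 5m AS, with 21736 in 5m AS, 20118 in 2m AS, 17666 in the mixed female library and 18835 in WT. Levels are given in scaled CPM, a gene's UMIs summed over the collecting duct spots of a library per 1000000 UMIs after TMM scaling. On this scale 3 counts, the floor used below, came to 0.512 to 0.759. The percentage of these UMIs from mitochondrially encoded genes was 6.31 in early treated 5m AS and 8.78 in late treated 5m AS, with 6.803 in 5m AS, 5.85 in 2m AS, 5.51 in the mixed female library and 12.2 in WT. Per the file headers, WT and 5m AS were processed with Space Ranger 1.2.1 and the other 4 libraries with 1.3.1, so software version and group cannot be told apart except in 5m AS against WT, early against late treated 5m AS and 2m AS against the mixed female library. Of 4922 distinct barcodes, 4708 occurred in more than 1 library, as slides share 1 set of barcodes. Xist was at 24.3 scaled CPM in the mixed female library and at most 0.425 elsewhere, while Ddx3y was at 0 there and between 22.8 and 29.2 elsewhere.

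The score threshold was lower in 5m AS than in any other library. The lowest score kept was 1.619 in early treated 5m AS and 1.365 in late treated 5m AS, with 1.161 in 5m AS, 1.238 in 2m AS, 1.637 in the mixed female library and 1.247 in WT. Just below it, the highest score left out was 1.611 in early treated 5m AS and 1.363 in late treated 5m AS, with 1.159 in 5m AS, 1.237 in 2m AS, 1.636 in the mixed female library and 1.244 in WT. The percentage of collecting duct spots with UMIs of all 5 score genes was 74.3 in early treated 5m AS and 80.2 in late treated 5m AS, with 56.2 in 5m AS, 80.8 in 2m AS, 90.2 in the mixed female library and 81.04 in WT. The 5m AS spots were thus chosen at a lower level of these genes, and 56.2% of them showed all 5.

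The spots were rich in collecting duct genes outside the score. Of genes with at least 10 CPM in at least 1 of the 2 sets of spots in every library, 8045 in all, collecting duct spots exceeded the other spots of all 6 libraries by 1.5-fold or more in 246, and were as far below them in 3. These figures describe what the rule selected. The share of compared genes that were higher in collecting duct spots was 10.3% in early treated 5m AS and 9.17% in late treated 5m AS, with 5.27% in 5m AS, 12.3% in 2m AS, 11.6% in the mixed female library and 8.72% in WT. The share that were lower was 5.79% in early treated 5m AS and 4.07% in late treated 5m AS, with 0.688% in 5m AS, 1.87% in 2m AS, 6.13% in the mixed female library and 2.49% in WT. The genes with the largest smallest ratio were mostly intercalated cell genes. The ratio of collecting duct to other spots over the 6 libraries ran at 5.04 to 10.3 for Insrr, an alkali-sensing receptor of type B cells, 5.01 to 9.23 for Hepacam2, 4.88 to 9.06 for Rhbg, an ammonia transporter, 4.8 to 10.8 for the homeobox gene Hmx2, and 4.68 to 8.67 for Guca2a, the peptide guanylin. It ran at 4.53 to 9.36 for Foxi1, 4.67 to 6.77 for Oxgr1, the 2-oxoglutarate receptor, 4.44 to 10.3 for Kcne1, a potassium channel subunit, and 4.19 to 6.86 for Scnn1b. At the other end stood Ttr, the transthyretin gene, at 0.279 to 0.604, and Slc39a8, a metal ion transporter, at 0.303 to 0.661.

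Other markers of the collecting duct were high in the same spots. Of the compared members of a 20-gene principal cell list, 13 of 15 in 5m AS and between 14 and 16 of 15 to 17 in the other libraries were at least 1.5-fold higher in collecting duct spots. Of the shared intercalated cell list, 10 of 12 in 5m AS and 11 or 12 of 12 elsewhere were higher. Connecting tubule genes were higher for 5 of 6 or 7 compared members in every library, so the spots also held the segment that joins the nephron to the duct. Slc14a2, the urea transporter of the inner medullary duct and thin limb, was at 0 in 5 libraries and at 1.27 scaled CPM in 5m AS. Urothelial markers summed to between 0.879 CPM in WT and 24.98 CPM in 5m AS over 10 genes, with 6 to 8 of them at 0. Late proximal tubule genes were lower in collecting duct spots for 8 to 11 of the 8 to 12 compared members in 5 libraries, and for 0 of 12 in 5m AS.

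Within a library, the spots differed in how much RNA of each kind they held. Over the spots of 1 library, Spearman's rho between Aqp2 and Aqp3 was 0.35 to 0.72 across the 6 libraries, and between Aqp2 and Calb1, the calcium-binding protein of the connecting tubule, -0.55 to -0.22. Between Aqp2 and Atp6v1g3 it was -0.50 to -0.09, and between Slc26a4 and Slc4a1, which mark the type B and type A cells, -0.10 to 0.13. These are descriptions over 160 to 327 spots that share a library and its depth, and the counts per spot are sparse. Aqp2 and Atp6v1g3 both enter the score whose sum chose the spots, so their rho is not independent of the rule. The summed levels of principal cell and intercalated cell genes outside the score were higher together, at a rho of 0.24 to 0.65.

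**Figure D1:**
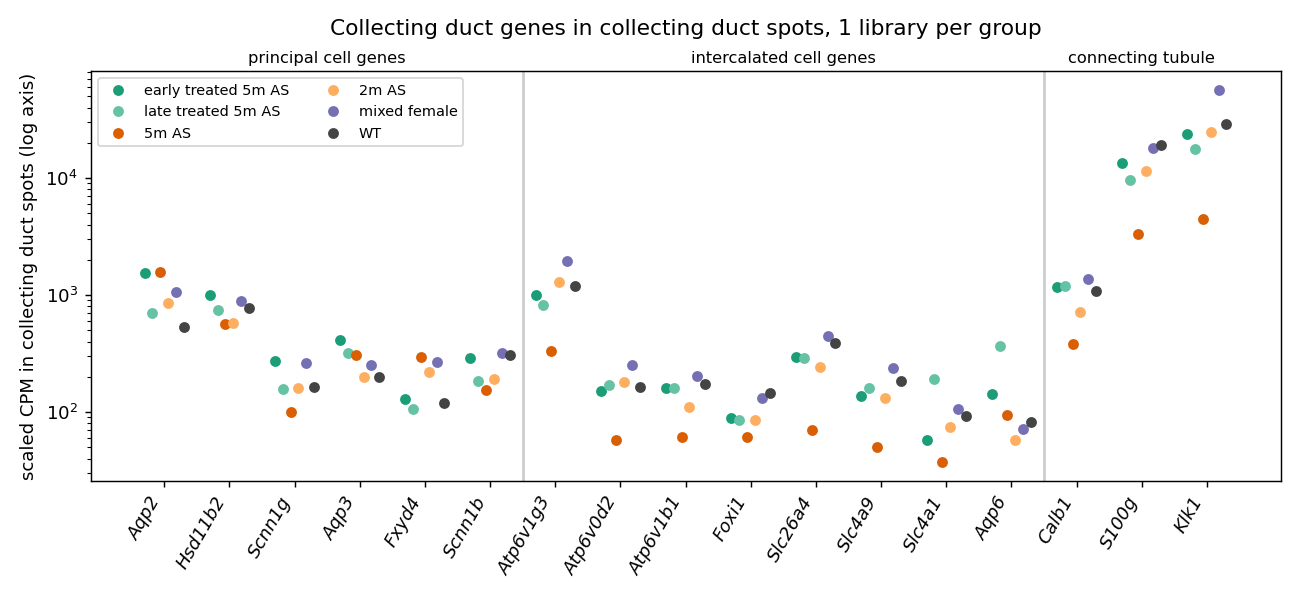
Level (scaled CPM, log axis) of 17 collecting duct and connecting tubule genes in the summed collecting duct spots, 1 point per library. The 5m AS point lies below the other 5 for the principal cell genes Hsd11b2, Scnn1g and Scnn1b. It also lies below them for Atp6v1g3, Atp6v0d2, Atp6v1b1, Foxi1, Slc26a4, Slc4a9, Slc4a1, Calb1, S100g and Klk1. It lies above them for Aqp2 and Fxyd4.

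The 5 score genes differed in their order over the libraries, and since they chose the spots their levels are a description. Aqp2 had 1532 scaled CPM in early treated 5m AS and 710.4 in late treated 5m AS, with 1576 in 5m AS, 861 in 2m AS, 1055 in the mixed female library and 529.7 in WT. Hsd11b2 had 1012 scaled CPM in early treated 5m AS and 744 in late treated 5m AS, with 562 in 5m AS, 582 in 2m AS, 890.4 in the mixed female library and 783 in WT, and Scnn1g, the ENaC gamma subunit, had 271 scaled CPM in early treated 5m AS and 158 in late treated 5m AS, with 99.5 in 5m AS, 161 in 2m AS, 263 in the mixed female library and 165 in WT. Aqp2 was thus highest in 5m AS and early treated 5m AS and lowest in WT, while Hsd11b2 and Scnn1g were lowest in 5m AS. Atp6v1g3 had 1009.7 scaled CPM in early treated 5m AS and 820.2 in late treated 5m AS, with 336 in 5m AS, 1291 in 2m AS, 1968 in the mixed female library and 1195 in WT. Atp6v0d2 had 152 scaled CPM in early treated 5m AS and 171 in late treated 5m AS, with 57.7 in 5m AS, 179.9 in 2m AS, 255 in the mixed female library and 163 in WT. Both pump subunits were lowest in 5m AS.

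Among principal cell genes outside the score, the water channel and sodium channel genes differed in their order over the libraries. Aqp3 had 415 scaled CPM in early treated 5m AS and 321 in late treated 5m AS, with 309 in 5m AS, 202 in 2m AS, 254 in the mixed female library and 201 in WT. Fxyd4, a regulator of the sodium pump in the collecting duct, had 129.6 scaled CPM in early treated 5m AS and 106 in late treated 5m AS, with 294 in 5m AS, 221 in 2m AS, 268 in the mixed female library and 119.7 in WT. Aqp3 was higher in the 3 AS libraries at 5 months than in the other 3, and Fxyd4 was highest in 5m AS and lowest in the late treated library. The ratio of 5m AS over WT was 1.54 (95% interval 1.42 to 1.67) for Aqp3 and 2.45 (95% interval 2.23 to 2.699) for Fxyd4 in collecting duct spots, against 0.725 (0.695 to 0.757) and 1.29 (1.22 to 1.35) in the other spots. Against the mixed female library instead of WT, 15.2% of compared genes were higher and 15.9% lower in 5m AS. There the log2 ratios of 5m AS were 0.28 for Aqp3, 0.13 for Fxyd4 and 0.58 for Aqp2. None of the 3 was then still 1.5-fold apart. This change of reference also changes sex, genotype and Space Ranger version.

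The other ENaC subunits were lower in 5m AS than in WT. Scnn1b had 293 scaled CPM in early treated 5m AS and 185 in late treated 5m AS, with 156 in 5m AS, 193 in 2m AS, 323 in the mixed female library and 307 in WT. Scnn1a had 155 scaled CPM in early treated 5m AS and 156 in late treated 5m AS, with 82.5 in 5m AS, 86.3 in 2m AS, 163 in the mixed female library and 179 in WT. Scnn1a was lowest in the untreated AS libraries at both ages. The ratio of 5m AS over WT was 0.462 (95% interval 0.407 to 0.523) for Scnn1a and 0.509 (95% interval 0.463 to 0.558) for Scnn1b. Nr3c2, the mineralocorticoid receptor, had 25.2 scaled CPM in early treated 5m AS and 26.6 in late treated 5m AS, with 9.62 in 5m AS, 16.4 in 2m AS, 24.1 in the mixed female library and 19.6 in WT, and was lowest in 5m AS. Sgk1, a kinase induced by aldosterone that keeps ENaC at the membrane, had 136 scaled CPM in early treated 5m AS and 66.3 in late treated 5m AS, with 172 in 5m AS, 86.8 in 2m AS, 284 in the mixed female library and 139 in WT, with no order shared with the channel subunits.

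Other principal cell genes had orders of their own. Avpr2, the vasopressin receptor, ranged from 45.6 scaled CPM in 5m AS to 86.7 in the mixed female library. Kcnj1, the potassium channel ROMK, which is also a gene of the thick ascending limb, ranged from 233 in late treated 5m AS to 423 in the mixed female library. Tfcp2l1, a transcription factor of the duct epithelium, ranged from 163 in 2m AS to 388 in late treated 5m AS. Stc1, the hormone stanniocalcin 1, had 25.2 scaled CPM in early treated 5m AS and 29.95 in late treated 5m AS, with 8.86 in 5m AS, 16.8 in 2m AS, 10.7 in the mixed female library and 7.17 in WT, and was highest in the treated libraries. Aqp4, Elf5, Pde10a and Mgat4c were below 10 scaled CPM in every library and were not compared.

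Of the 12 genes of the shared intercalated cell list with at least 10 scaled CPM, 11 were lowest in 5m AS. Foxi1 had 89.9 scaled CPM in early treated 5m AS and 85.6 in late treated 5m AS, with 61.3 in 5m AS, 86.3 in 2m AS, 133 in the mixed female library and 146 in WT. Atp6v1b1, the pump subunit shown above, had 162 scaled CPM in early treated 5m AS and 161 in late treated 5m AS, with 61.3 in 5m AS, 111 in 2m AS, 204 in the mixed female library and 176 in WT. Rhcg and Rhbg, which carry ammonia, had 193 and 95.4 scaled CPM in 5m AS, against 584 and 399.5 in WT. The 5m AS library lay below the other 5 for each of these 4 genes, and the treated libraries lay between 5m AS and WT. The ratio of 5m AS over WT was 0.419 (95% interval 0.362 to 0.484) for Foxi1, 0.349 (95% interval 0.302 to 0.402) for Atp6v1b1 and 0.239 (95% interval 0.214 to 0.266) for Rhbg. Atp6v1c2, another pump subunit, had the lowest of the shared list at 0.222 (95% interval 0.187 to 0.263). Car2, the carbonic anhydrase that supplies protons to the pump, had 774 scaled CPM in early treated 5m AS and 786 in late treated 5m AS, with 312 in 5m AS, 713 in 2m AS, 891 in the mixed female library and 733 in WT. Dmrt2 was the exception, at 14.2 scaled CPM in 5m AS against 12.3 in WT.

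The type B genes Slc26a4, Slc4a9, Insrr and Spink8 were lowest in 5m AS too. Slc26a4 had 293 scaled CPM in early treated 5m AS and 292 in late treated 5m AS, with 70.6 in 5m AS, 242 in 2m AS, 446 in the mixed female library and 389 in WT. Slc4a9, the basolateral exchanger AE4 of type B cells, had 138 scaled CPM in early treated 5m AS and 161 in late treated 5m AS, with 50.4 in 5m AS, 133 in 2m AS, 238 in the mixed female library and 185 in WT. Insrr had 81.9 scaled CPM in early treated 5m AS and 73.7 in late treated 5m AS, with 26.8 in 5m AS, 82.8 in 2m AS, 150.1 in the mixed female library and 140.4 in WT. For all 3 genes 5m AS was the lowest library, 2m AS and both treated libraries lay below WT, and the mixed female library was the highest. The ratio of 5m AS over WT was 0.181 (95% interval 0.160 to 0.205) for Slc26a4, 0.272 (95% interval 0.232 to 0.316) for Slc4a9 and 0.191 (95% interval 0.155 to 0.234) for Insrr. Spink8, a protease inhibitor gene on the type B list, had 341 scaled CPM in early treated 5m AS and 233 in late treated 5m AS, with 80.2 in 5m AS, 386 in 2m AS, 497 in the mixed female library and 300.4 in WT. Slc4a8, a sodium-dependent bicarbonate exchanger on the same list, was at 10.6 scaled CPM in 5m AS, against 6.12 in 2m AS and 10.6 in WT.

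Among type A genes, Slc4a1 and Car15 were also lowest in 5m AS, and Aqp6 was not. In 5m AS against WT, 11.2% of all compared genes were higher and 12.8% lower. Of 6 compared genes of the type A list, none was higher and 1, Slc4a1, was lower, with a median log2 ratio of -0.29. This median depended on the processing. Over 17 alternatives it ran from -0.73, against the mixed female library, to 0.066, with plain CPM. Slc4a1 had 57.7 scaled CPM in early treated 5m AS and 192 in late treated 5m AS, with 37.5 in 5m AS, 74.7 in 2m AS, 106 in the mixed female library and 92.7 in WT. Aqp6, an aquaporin of intracellular vesicles in type A cells, had 143 scaled CPM in early treated 5m AS and 369 in late treated 5m AS, with 94.9 in 5m AS, 57.9 in 2m AS, 71.7 in the mixed female library and 82.7 in WT. Slc4a1 was lowest in 5m AS and Aqp6 in 2m AS. Both were highest in late treated 5m AS, where Slc4a1 was 5.12 (95% interval 4.299 to 6.13) times and Aqp6 3.88 (95% interval 3.47 to 4.35) times the 5m AS level. Kit and Adgrf5, also on the type A list, were highest in the same library, at 47.2 and 136 scaled CPM. Slc4a1 is also a red cell gene, and Hba-a1, an alpha globin gene, had 66.2 scaled CPM in early treated 5m AS and 428 in late treated 5m AS, with 218 in 5m AS, 593 in 2m AS, 274 in the mixed female library and 557 in WT. Hba-a1 was highest in 2m AS, and the part of red cell RNA in the Slc4a1 values was not tested. Car15, a carbonic anhydrase, ranged from 452 scaled CPM in 5m AS to 835 in the mixed female library.

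**Figure D2:**
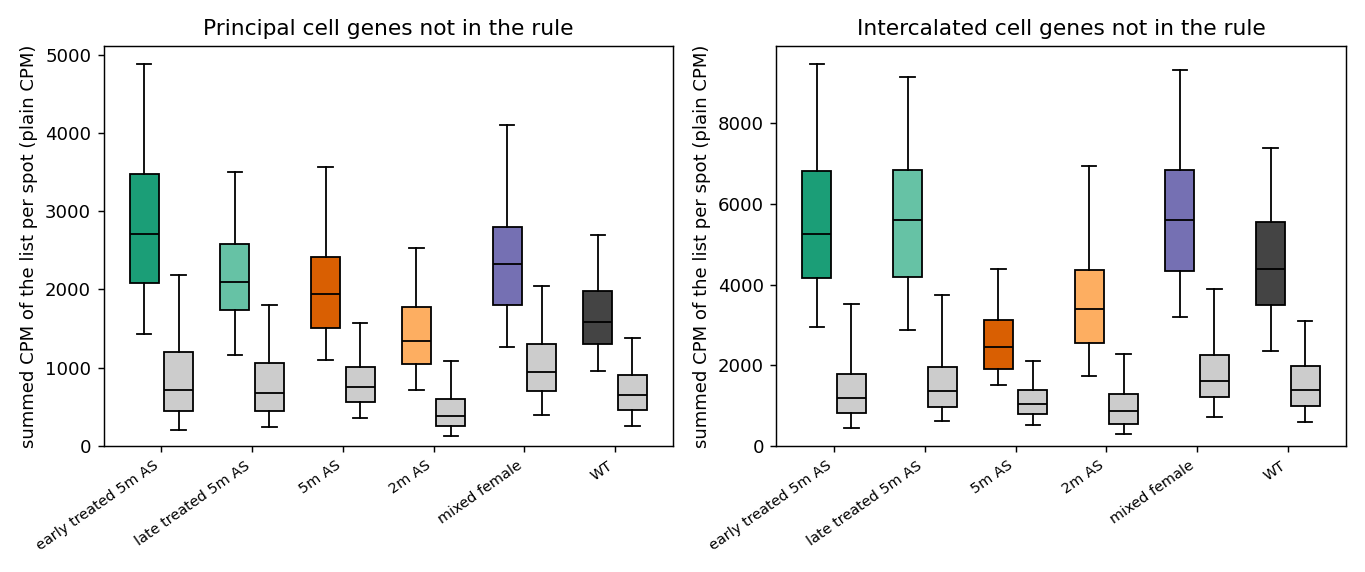
Summed CPM per spot (not TMM scaled) of 20 principal cell genes (left) and 29 intercalated cell genes (right), none of them in the score, in collecting duct spots (coloured) and in the other spots of the same library (grey). Boxes show the median and quartiles over spots and whiskers the 5th and 95th percentiles. The median spot held 2448 CPM of intercalated cell genes in 5m AS and 4400 CPM in WT.

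Per spot and in plain CPM, principal cell RNA was higher in 5m AS than in WT and intercalated cell RNA was lower. The principal cell list summed, in the median collecting duct spot, to 2709 CPM in early treated 5m AS and 2093 in late treated 5m AS, with 1941 in 5m AS, 1347 in 2m AS, 2324 in the mixed female library and 1583 in WT. The intercalated cell lists summed to 5264 CPM in early treated 5m AS and 5597 in late treated 5m AS, with 2448 in 5m AS, 3394 in 2m AS, 5609.7 in the mixed female library and 4400.2 in WT. The principal cell direction turned with the scaling: in scaled CPM the list summed to 1847 in 5m AS and 1962 in WT. The 5m AS spots were lowest of all libraries in intercalated cell genes. Fewer cells of a type and less RNA per cell cannot be told apart in these spots.

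The summed UMIs of the 29 intercalated cell genes over those of the 20 principal cell genes do not depend on the scaling between libraries. In collecting duct spots this ratio was 2.03 in early treated 5m AS and 2.63 in late treated 5m AS, with 1.26 in 5m AS, 2.48 in 2m AS, 2.37 in the mixed female library and 2.77 in WT. With counting intervals it was 1.26 (1.22 to 1.297) in 5m AS, against 2.48 (2.41 to 2.55) in 2m AS and 2.77 (2.71 to 2.83) in WT. In the early treated library it was 2.03 (1.98 to 2.08) and in the late treated library 2.63 (2.57 to 2.696). The ratio in 5m AS lay between 1.23 and 1.45 over 10 ways of choosing the spots, where the other libraries lay between 1.91 and 2.89. In the other spots it was 1.63 in early treated 5m AS and 1.97 in late treated 5m AS, with 1.37 in 5m AS, 2.14 in 2m AS, 1.698 in the mixed female library and 2.23 in WT, so that 5m AS was lowest there too.

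**Figure D3:**
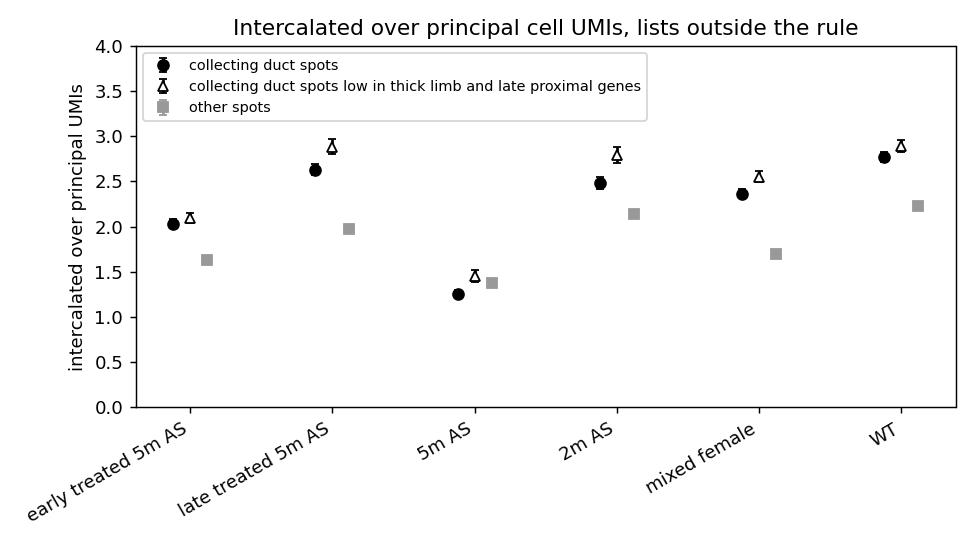
Summed UMIs of 29 intercalated cell genes over those of 20 principal cell genes in the collecting duct spots, in the collecting duct spots low in thick ascending limb and late proximal tubule genes, and in the other spots of each library, with 95% counting intervals. In collecting duct spots the 5m AS library is at 1.26 and the other 5 between 2.03 and 2.77.

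Thick ascending limb RNA was present in the spots, and more so in 5m AS than in the other libraries. In the median collecting duct spot, a list of 12 thick ascending limb genes summed to 2169 CPM in early treated 5m AS and 2345 in late treated 5m AS, with 5938 in 5m AS, 2595 in 2m AS, 3220.0 in the mixed female library and 2303 in WT. Umod, the defining gene of that limb, had 1889.9 scaled CPM in early treated 5m AS and 2154 in late treated 5m AS, with 5040.0 in 5m AS, 2791 in 2m AS, 2944 in the mixed female library and 1334 in WT. Neither Umod nor the limb's salt transporter Slc12a1 was at 0 in any library, and Slc12a1 ranged from 129 scaled CPM in early treated 5m AS to 564 in 5m AS. Restricted to spots whose thick ascending limb and late proximal tubule RNA was at or below the 75th percentile of the WT collecting duct spots, 82 spots of 5m AS and 245 of WT, the ratio of intercalated to principal UMIs was 1.45 (1.39 to 1.52) in 5m AS, against 2.89 (2.82 to 2.96) in WT. The distal convoluted tubule list and the pooled proximal lists were not highest in 5m AS. The distal convoluted tubule list summed in the median spot to 496 CPM in 5m AS, against 957 in 2m AS and 1574 in WT. The early and late proximal lists summed to 10274 CPM in 5m AS, against 16086 in 2m AS and 18263 in WT. The late proximal list alone is described below. The macrophage and fibroblast lists were highest in 5m AS, at 1948 and 1077 CPM in the median spot, against 171 and 135 in WT. The part of neighbouring segments in the other values was not tested beyond this restriction. In the same restricted spots the log2 ratio of 5m AS over WT was -1.91 for Slc26a4 and 1.303 for Aqp2, against -2.46 and 1.57 in all collecting duct spots.

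Of the connecting tubule genes, Klk1, S100g, Calb1, Slc8a1 and Trpv5 were also lowest in 5m AS. This segment takes up calcium and releases kallikrein. Klk1, tissue kallikrein, had 24059.8 scaled CPM in early treated 5m AS and 17860.2 in late treated 5m AS, with 4516 in 5m AS, 24694 in 2m AS, 56849.9 in the mixed female library and 28898 in WT. S100g, the calcium carrier calbindin-D9k, had 13547 scaled CPM in early treated 5m AS and 9706 in late treated 5m AS, with 3360.2 in 5m AS, 11435 in 2m AS, 18087 in the mixed female library and 19051 in WT. Calb1 had 1173 scaled CPM in early treated 5m AS and 1202 in late treated 5m AS, with 381 in 5m AS, 712 in 2m AS, 1366 in the mixed female library and 1078 in WT. The 5m AS library was lowest for all 3 genes and the treated libraries were at least 2.89 times as high. The ratio of 5m AS over WT was 0.156 (95% interval 0.154 to 0.159) for Klk1, 0.176 (95% interval 0.173 to 0.180) for S100g and 0.354 (95% interval 0.334 to 0.374) for Calb1. Klk1 has close paralogs among the Klk1b genes, and reads shared between them cannot be told apart here. Trpv5, the apical calcium channel, had 55.2 scaled CPM in early treated 5m AS and 44.6 in late treated 5m AS, with 12.7 in 5m AS, 23.8 in 2m AS, 47.2 in the mixed female library and 30.7 in WT. Atp2b1, a calcium pump, was at 37.2 scaled CPM in 5m AS and 32.97 in WT, and Ppp1r1b at 14.7 in 5m AS and 6.32 in WT.

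The comparison of 5m AS with WT sets the older untreated AS library against wild type. The WT age is not stated, so age and genotype cannot be told apart here or at 2 months. A gene was compared where 1 of the 2 libraries had at least 10 scaled CPM and called where the libraries were at least 1.5-fold apart. Of 9747 genes, 1089 were higher (11.2%) and 1251 lower (12.8%) in 5m AS. These counts depend on the scaling, and plain CPM gave 2223 higher and 432 lower genes, with the median log2 ratio of all compared genes at 0.25 in place of -0.12. Of the shared intercalated cell list, 11 of 12 compared members were lower and none higher, with a median log2 ratio of -1.39 in collecting duct spots and -1.10 in the other spots. With plain CPM the median was -1.03. The type B median was -1.90 (other spots -2.21), and 4 of 5 genes were lower. The connecting tubule median was -1.50 (other spots -1.44), and 5 of 7 genes were lower and 1, Ppp1r1b, higher. On the V-ATPase list, which also holds the subunits found in every cell, 15 of 20 genes were lower, at a median of -0.72. Without its score genes, 13 of 18 were lower, at a median of -0.71. For the full V-ATPase list the median was -0.37 with plain CPM in collecting duct spots, short of 1.5-fold. It was -0.51 in the other spots.

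Most compared principal cell genes were not called in 5m AS against WT, where 11.2% of all compared genes were higher and 12.8% lower. Of 15 compared members of the list of 20, 2 were higher (Fxyd4 and Aqp3) and 4 lower (Scnn1a, Scnn1b, Nr3c2 and Tmem45b). Their median log2 ratio was -0.35 in collecting duct spots and -0.46 in the other spots, and it was -0.00013 with plain CPM. Against the mixed female library it was -0.65. Of the aldosterone, sodium and potassium list without the score genes Hsd11b2 and Scnn1g, 10 of 17 were lower and 1, Fxyd4, was higher. The median of that list was -0.82 in collecting duct spots and -0.73 in the other spots. Klhl3 and Wnk4, which regulate distal salt transport, had ratios of 0.290 (95% interval 0.226 to 0.368) and 0.474 (95% interval 0.421 to 0.532). The vasopressin and water list without the score gene Aqp2 held 1 higher, Aqp3, and 0 lower of 10, with a median of -0.14.

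Injury and inflammation genes were high in the 5m AS spots. Lcn2, a lipocalin released by injured distal epithelium, had 58.2 scaled CPM in early treated 5m AS and 18.9 in late treated 5m AS, with 197 in 5m AS, 13.1 in 2m AS, 2.497 in the mixed female library and 0.512 in WT. Ccl2, a chemokine that draws monocytes, had 44.9 scaled CPM in early treated 5m AS and 9.13 in late treated 5m AS, with 65.3 in 5m AS, 2.62 in 2m AS, 6.58 in the mixed female library and 0.171 in WT. Havcr1, the proximal injury marker KIM-1, had 46.2 scaled CPM in early treated 5m AS and 16.1 in late treated 5m AS, with 124 in 5m AS, 3.93 in 2m AS, 0.681 in the mixed female library and 0.171 in WT. All 3 were highest in 5m AS and lower in the late treated than in the early treated library, and WT held 3, 1 and 1 UMIs of them. Of the tubular injury list 17 of 20 were higher, at a median log2 ratio of 1.74 in collecting duct spots and 2.34 in the other spots. Clu, Krt7 and Cldn4 were the 3 members that were not called. Spp1, osteopontin, had a ratio of 3.75 (95% interval 3.66 to 3.84) in collecting duct spots and of 10.8 (10.6 to 10.9) in the other spots.

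Immune and matrix lists were higher almost in full. All 12 of 12 macrophage genes were higher in 5m AS than in WT (median log2 ratio 2.68), all 19 of 19 compared matrix genes (2.48), all 19 of 19 compared chemokine and NF-kB genes (1.84) and 11 of 13 complement genes (2.05). In the other spots the medians were 2.64, 2.41, 1.84 and 2.10. Lyz2, the lysozyme of myeloid cells, had 721 scaled CPM in 5m AS against 30.9 in WT, C3 of the complement cascade 352 against 14.01, and the collagen gene Col1a1 207 against 20.2. The summed macrophage list per median spot was 1948 CPM in 5m AS and 171 CPM in WT. The part of these immune and stromal cells in the epithelial values was not tested.

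**Figure D4:**
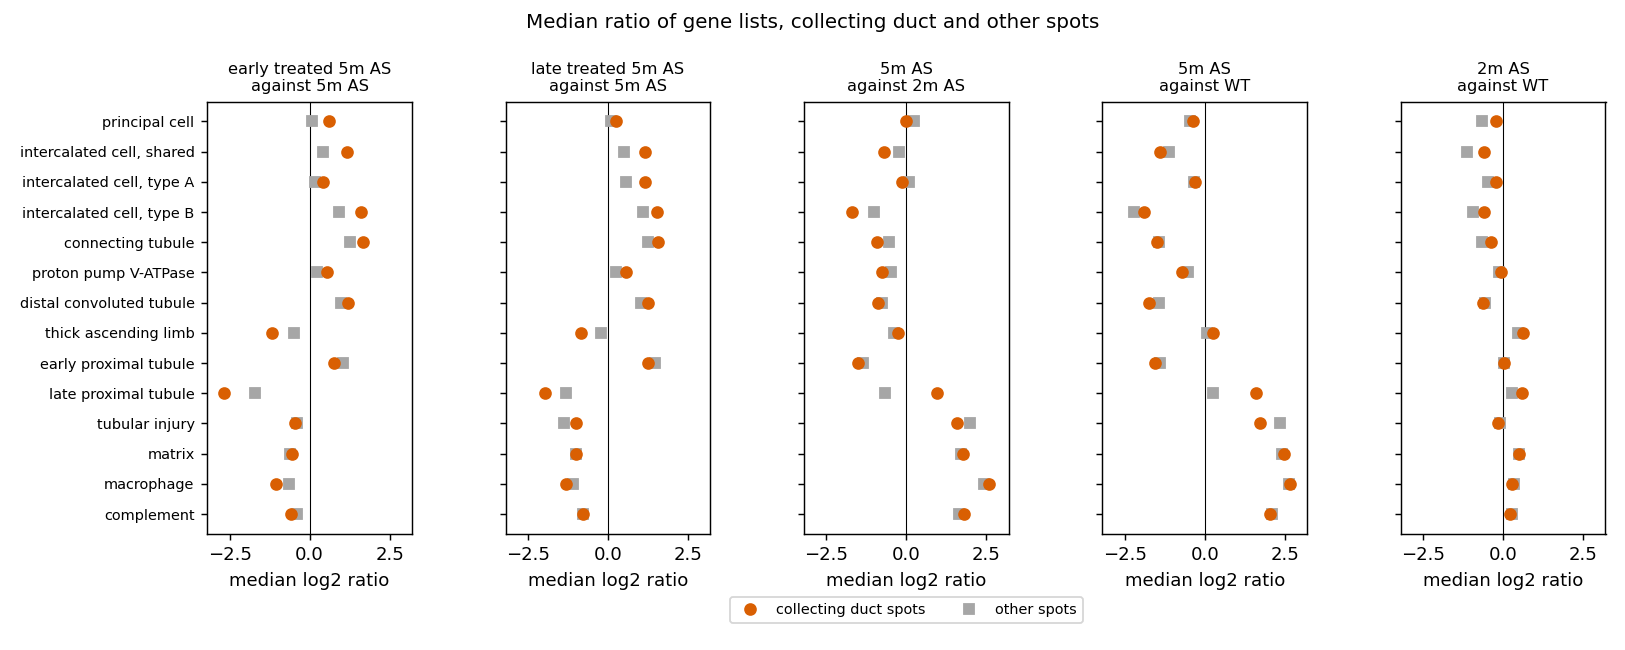
Median log2 ratio of the compared members of 14 gene lists in 5 comparisons, in collecting duct spots (orange circles) and in the other spots of the same libraries (grey squares). The shared intercalated cell list lies at -1.39 in 5m AS against WT and at 1.17 and 1.14 in the early and late treated libraries against 5m AS. The V-ATPase list shown includes 2 score genes.

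Proximal tubule genes split by segment. All 12 of 12 early proximal genes were lower in 5m AS (median -1.54). Of the late proximal list 7 were higher and 3 lower, with a median of 1.61 in collecting duct spots and 0.27 in the other spots, and the sign turned to -0.96 in the spots low in thick ascending limb and late proximal genes, which were chosen by these genes. Serpina1f, an alpha-1-antitrypsin paralog on that list, had 0.250 scaled CPM in early treated 5m AS and 0.425 in late treated 5m AS, with 223 in 5m AS, 34.1 in 2m AS, 55.8 in the mixed female library and 1.37 in WT. Reads of Serpina1 paralogs cannot be told apart here.

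Some genes had a ratio further from 1 in collecting duct spots than in the other spots, which was not tested. Slc2a9, a urate transporter, had 35.7 scaled CPM in early treated 5m AS and 31.9 in late treated 5m AS, with 6.58 in 5m AS, 18.1 in 2m AS, 31.3 in the mixed female library and 41.7 in WT, and its ratio of 5m AS over WT was 0.158 (95% interval 0.101 to 0.237) in collecting duct spots and 0.406 (0.352 to 0.468) in the other spots. Cck, cholecystokinin, was at 34.7 scaled CPM in 5m AS against 0.171 in WT. Among the genes with the lowest ratios, Pde6a, a phosphodiesterase subunit, was at 1.01 scaled CPM in 5m AS against 16.6 in WT, Ren1, renin, at 24.3 against 242, and Pvalb, the parvalbumin of the distal convoluted tubule, at 4.81 against 49.5. Of 9118 genes compared in both sets of spots, none was called in opposite directions.

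**Figure D5:**
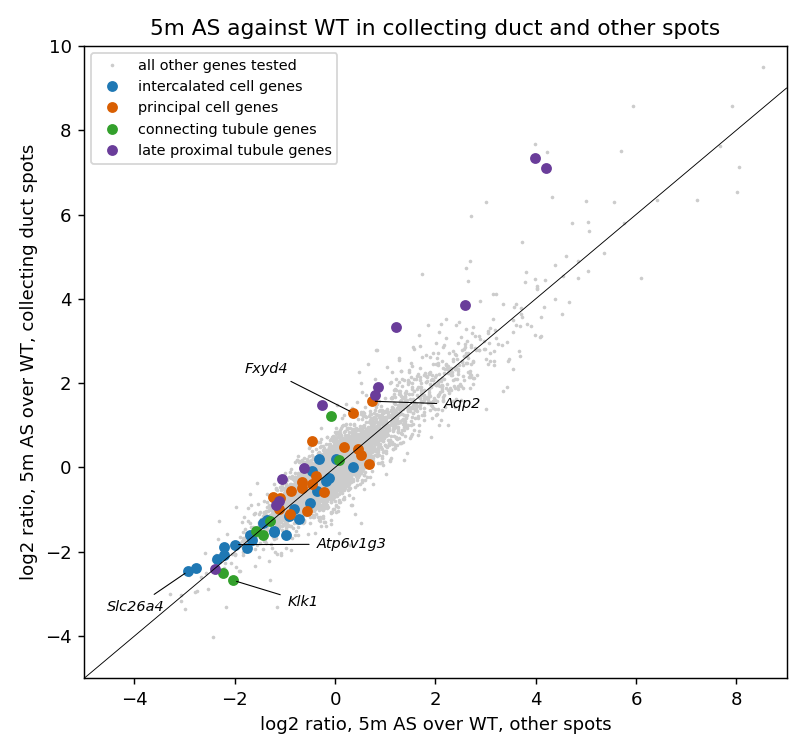
Log2 ratio of 5m AS over WT in collecting duct spots (y axis) and in the other spots (x axis), 1 point per compared gene, with genes at 0 in either library left out. The line marks equal ratios. Most intercalated cell and connecting tubule genes lie at the lower left near the line, Slc26a4 at -2.46 in collecting duct spots, and most late proximal tubule genes lie above it.

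At 2 months fewer genes were called against WT than at 5 months. Of 9406 genes, 693 were higher (7.37%) and 846 lower (8.99%) in 2m AS, and with median-of-ratios factors in place of TMM 895 were higher and 616 lower. Of the shared intercalated cell list 6 of 12 were lower and 1, Dmrt2, was higher, with a median log2 ratio of -0.60 in collecting duct spots and -1.13 in the other spots. Rhbg had the lowest ratio of that list, at 0.402 (95% interval 0.369 to 0.436), while the score genes Atp6v1g3 and Atp6v0d2 were at 1.08 (95% interval 1.04 to 1.12) and 1.1 (95% interval 1.001 to 1.21). Slc26a4 was at 0.621 (95% interval 0.577 to 0.667), and the type B median was -0.58 (other spots -0.94). Of 16 compared principal cell genes 3 were higher (Fxyd4, Stc1 and Apela) and 5 lower, with a median of -0.21. Apela encodes a peptide ligand of the apelin receptor.

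Some directions at 2 months changed with the reference library. The mixed female library differs from WT in sex (by Xist and Ddx3y), genotype and Space Ranger version, which cannot be told apart. The ratio of 2m AS over WT was 1.63 (95% interval 1.55 to 1.71) for Aqp2 and 1.84 (95% interval 1.67 to 2.03) for Fxyd4, but against the mixed female library, where 8.88% of compared genes were higher and 6.84% lower in 2m AS, the log2 ratios were -0.29 for Aqp2, -0.28 for Fxyd4 and -0.10 for Dmrt2. Against WT, 9 of 17 genes of the aldosterone, sodium and potassium list without its score genes were lower, with a median of -0.62 (other spots -0.50). Scnn1a was at 0.483 (95% interval 0.429 to 0.543). Lcn2 was at 13.1 scaled CPM in 2m AS, with 60 UMIs against 3 in WT. Mcoln3, a lysosomal cation channel, had 29.95 scaled CPM in early treated 5m AS and 25.5 in late treated 5m AS, with 47.6 in 5m AS, 28.9 in 2m AS, 19.1 in the mixed female library and 8.71 in WT, with a ratio of 2m AS over WT of 3.31 (95% interval 2.38 to 4.67) in collecting duct spots and 0.935 (0.802 to 1.09) in the other spots. Of the unfolded protein response list 6 of 11 were lower (median -0.63). Of the fibroblast list 5 of 6 were higher (median 1.09), and of the macrophage list 3 of 8 (median 0.29). Against the mixed female library 4 of 6 fibroblast genes were higher in 2m AS (median 1.33), and of the macrophage list 0 were higher and 1 lower of 8 (median -0.23).

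Between 2 and 5 months, AS spots differed in more genes than either age did from WT. Of 9805 genes, 1524 were higher (15.5%) and 1856 lower (18.9%) in 5m AS than in 2m AS, and plain CPM gave 3274 higher and 697 lower genes, with the median of all compared genes at 0.33 in place of -0.05. Of the shared intercalated cell list 8 of 12 were lower, with a median of -0.70 in collecting duct spots and -0.23 in the other spots, and -0.34 with plain CPM. On the type B list 5 of 6 genes were lower and 1, Slc4a8, higher, at a median of -1.70. Principal cell genes had a median of -0.01. Of the macrophage list 12 of 12 were higher (median 2.59), and of the unfolded protein response list 11 of 12 (median 1.06).

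In early treated 5m AS, most shared intercalated cell genes and 9 of 16 principal cell genes were higher than in 5m AS. Of 9745 genes, 710 were higher (7.29%) and 862 lower (8.85%) in early treated 5m AS, and plain CPM gave 954 higher and 754 lower genes. Of the shared intercalated cell list 10 of 12 were higher and none lower, with a median log2 ratio of 1.17 in collecting duct spots and 0.43 in the other spots. The type B median was 1.61, and Slc26a4 was at 4.15 (95% interval 3.64 to 4.75) times and Insrr at 3.05 (95% interval 2.44 to 3.84) times the 5m AS level. Of 16 principal cell genes 9 were higher and 1, Fxyd4, was lower, with a median of 0.62 in collecting duct spots and 0.09 in the other spots. The ENaC genes Scnn1a and Scnn1b both had ratios of 1.88. Of the score genes, whose values are a description, Scnn1g was at 2.73 and Aqp2 at 0.972. The lowest score kept was lower in 5m AS, and with 1 score threshold for all libraries the median was 0.38 for the principal cell list, short of 1.5-fold, and 0.79 for the shared intercalated list. Connecting tubule genes had a median of 1.66, and Klk1 was at 5.33 (95% interval 5.24 to 5.41) times the 5m AS level.

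Part of the injury genes were lower in early treated 5m AS than in 5m AS. Of the tubular injury list 8 of 20 were lower and 2, Clu and Cldn4, higher (median -0.45), of the macrophage list 11 of 12 lower (median -1.05), and of the matrix list 8 of 19 lower (-0.56). Lcn2 had a ratio of 0.296 (95% interval 0.254 to 0.343), and Lyz2 one of 0.463 (95% interval 0.434 to 0.494). Slpi, a secreted protease inhibitor, was at 19.5 scaled CPM in early treated 5m AS against 2.02 in 5m AS. The late proximal list had a median of -2.66 and the thick ascending limb list one of -1.16, so RNA of these segments took a smaller share of the early treated than of the 5m AS spots. In the spots low in both, the medians were 0.96 for the shared intercalated list and 0.70 for the principal cell list, against 1.17 and 0.62 in all collecting duct spots.

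In late treated 5m AS, nearly all shared intercalated cell genes were higher than in 5m AS, and 5 principal cell genes were. Of 9785 genes, 929 were higher (9.49%) and 1262 lower (12.9%) in late treated 5m AS, and plain CPM gave 1183 higher and 1109 lower genes. Of the shared intercalated cell list 11 of 12 were higher and none lower (median 1.14, other spots 0.51), with Atp6v1c2 at 3.89 (95% interval 3.27 to 4.64) times the 5m AS level. On the type A list 4 of 6 genes were higher, at a median of 1.16, and the type B median was 1.54. Of 16 principal cell genes 5 were higher and 2 lower, Fxyd4 and Sgk1, with a median of 0.26. Aqp2 was at 0.451 (95% interval 0.432 to 0.470) times the 5m AS level in collecting duct spots and 0.329 (0.319 to 0.339) in the other spots.

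The injury and immune lists were mostly lower in late treated 5m AS than in 5m AS. Of the tubular injury list 14 of 20 were lower (median -1.01), of the matrix list 16 of 19 (-1.01), of the chemokine and NF-kB list 17 of 19 (-0.96) and of the macrophage list 10 of 12 (-1.30). None of the compared members of these 4 lists was higher. Lcn2 had a ratio of 0.0961 (95% interval 0.0763 to 0.120) and Havcr1 one of 0.130 (95% interval 0.101 to 0.166). Cyp24a1, the enzyme that inactivates vitamin D, was at 191 scaled CPM in late treated 5m AS against 6.58 in 5m AS. The late proximal list had a median of -1.96 and the thick ascending limb list one of -0.85, and in the spots low in both the shared intercalated list had a median of 1.11. The 5m AS library serves as the reference of both treated libraries, so a feature of that section enters both comparisons.

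Set against each other, the treated libraries were more alike. Of 9556 genes, 408 were higher (4.27%) and 346 lower (3.62%) in early treated than in late treated 5m AS. None of 12 shared intercalated genes was called, with a median log2 ratio of 0.04. Slc4a1 and Aqp6 had ratios of 0.301 (95% interval 0.259 to 0.348) and 0.387 (95% interval 0.352 to 0.426). Of the principal cell list 4 of 16 were higher and none lower, Scnn1b, Sgk1, Apela and Ptges, the last encoding prostaglandin E synthase, and Aqp2 was at 2.16 (95% interval 2.07 to 2.25). Of the tubular injury list 9 of 17 were higher (median 0.69), with Lcn2 at 3.08 (95% interval 2.4 to 3.97). Cd8a, a T cell gene, was at 12.98 scaled CPM in early treated against 4.25 in late treated spots, with a ratio of 3.06 (95% interval 1.79 to 5.403) in collecting duct spots and 0.764 (0.593 to 0.981) in the other spots.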

How the data were processed

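The deposited files hold raw UMI counts per gene and spot for 6 Visium libraries, made by the authors with Space Ranger on mm10, per the file headers and the submitters' processing notes, with 32285 genes listed and no normalization. Whether spots outside tissue were removed in full, and how overlapping genes were assigned, is not given in the sources used here. No doublet caller was run, since a spot can hold several cells. Counts were summed over the collecting duct spots and over the other spots of each library and scaled by TMM (edgeR 4.0.16), giving scaled CPM. With 1 library per group, no test was run: a gene was called where 1 of the 2 libraries had at least 10 scaled CPM and the ratio was at least 1.5-fold in either direction. For genes at 0 in 1 library, 3 counts stood in for the 0 in list medians. List medians are over the genes so compared. Intervals are exact Clopper-Pearson 95% intervals on the UMIs, and UMIs and spots of 1 section are not independent animals.

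The members and gene lists were chosen with earlier results of these data known. Named genes were the 10 highest and the 10 lowest by ratio, as many that departed most from the other spots, all score, principal and intercalated cell genes, and up to 4 of each other list. Dmrt2 and other genes outside these were named where a count singled them out. A gene that the rule names is not reported here. Ddit3 and Aldoa were left out because their symbols occurred more than once. Alternatives changed the scaling, the filter on low values, the UMI minimum, the score genes, the percentile, the weight of spots, the WT reference and the neighbouring segments. The calling step was run on simulated counts with counting error only, which cannot show how animals and sections vary. Python 3.11.15, numpy 2.4.6, pandas 2.3.3, scipy 1.17.1, R 4.3.3 and DESeq2 1.42.0 (median-of-ratios factors) were used.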

Additional observations from a re-analysis of the deposited data

Results flagged for a closer look

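For 3 genes the untreated AS libraries lay at least 1.5-fold on opposite sides of WT at 2 and 5 months. Only score genes, principal and intercalated cell genes and genes picked by their ratios in these comparisons were searched. Other compared genes were not searched, so the count does not hold for all genes. Each group is 1 library, and the difference was not tested. Clec2h, a C-type lectin gene, had a ratio of 1.99 (95% interval 1.77 to 2.24) in 2m AS over WT and of 0.136 (95% interval 0.0972 to 0.186) in 5m AS over WT. It had 30.2 scaled CPM in early treated 5m AS and 102 in late treated 5m AS, with 10.9 in 5m AS, 159 in 2m AS, 96.3 in the mixed female library and 79.9 in WT. Cyp24a1, the vitamin D 24-hydroxylase, had a ratio of 3.24 (95% interval 2.84 to 3.71) in 2m AS over WT and of 0.123 (95% interval 0.0789 to 0.183) in 5m AS over WT. It had 51.9 scaled CPM in early treated 5m AS and 191 in late treated 5m AS, with 6.58 in 5m AS, 174 in 2m AS, 100.1 in the mixed female library and 53.6 in WT, so that 5m AS was the lowest library for both genes. Hspa1a, a heat shock protein gene with a close copy in Hspa1b, went the other way, with 0.263 (95% interval 0.219 to 0.314) in 2m AS over WT and 1.57 (95% interval 1.42 to 1.74) in 5m AS over WT. In the other spots the ratios at 2 and 5 months were 1.69 and 0.173 for Clec2h, 3.32 and 0.120 for Cyp24a1, and 0.0982 and 1.705 for Hspa1a.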

How the results depend on the processing

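Of 164 recomputed counts of called genes, 139 were within 1.5 times the reported count and 25 were not. With a minimum of 2 scaled CPM, 1342 genes were higher and 1364 lower in 2m AS against WT, 2214 higher in 5m AS against WT, 2730 higher in 5m AS against 2m AS, 1351 higher and 1700 lower in early treated against 5m AS, and 1602 higher and 2167 lower in late treated against 5m AS. With a minimum of 50, the counts were 328 and 255, 304 and 666, 375 and 1083, 237 and 326, and 333 and 493 in the same order of comparisons, higher first. These filters change how many genes are compared. With plain CPM, 2223 were higher and 432 lower in 5m AS against WT, and 3274 and 697 in 5m AS against 2m AS. In the 50% of spots with less proximal tubule RNA, 1879 were lower in 5m AS against WT, 1127 higher in early treated and 1484 higher in late treated against 5m AS. The cause was not tested.

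Of 1079 recomputed list medians whose reported value was past 1.5-fold, 1073 had the same direction and 1007 were still past it, and of 4856 recomputed ratios of called genes, 4842 and 4716. The exceptions in direction were as follows. Putting the mixed female library in place of WT also changed sex, genotype and Space Ranger version. The late proximal list turned to a median log2 ratio of -0.066 in 2m AS against WT, -0.96 in 5m AS against WT, -0.90 in 5m AS against 2m AS and 0.029 in late treated against 5m AS in the spots low in thick ascending limb and late proximal genes, a restriction chosen after seeing the data, as was the one to spots with all 5 score genes. In the 50% of spots with less proximal tubule RNA it was -0.0042 in 5m AS against WT and -1.05 in 5m AS against 2m AS. With the mixed female library in place of WT, 2m AS had log2 ratios of -0.29 for Aqp2, -2.65 for Cyp4a14, -0.10 for Dmrt2, -0.28 for Fxyd4, 1.42 for Hsd17b11, -0.71 for Serpina1f, -0.49 for Slc22a13 and -0.43 for Tmem86b, and 5m AS had 2.88 for Cyp4a12a. In 5m AS against 2m AS, Slc22a19 had -1.71 and Slco4c1 -0.036 in spots with less proximal tubule RNA, and Slc22a19 -1.27, Mettl7a2 -0.046 and Stc1 0.051 in the spots low in both segments.

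No paired analysis was possible because each group is 1 library, and leaving out 1 library of a group was not done for the same reason. Precision is limited by the 160 spots of 5m AS and by the floor of 3 counts.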

Other observations

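Stress and metabolic lists differed between the libraries in the collecting duct spots. Over all compared genes, 11.2% were higher and 12.8% lower in 5m AS against WT. The shares were 7.29% and 8.85% in early treated against 5m AS, and 9.49% and 12.9% in late treated against 5m AS. In 5m AS against WT, 10 of 20 oxidative phosphorylation genes were lower and 0 higher (median log2 ratio -0.60, other spots -0.56, and -0.24 with plain CPM). The mitochondrially encoded share was 6.80% in 5m AS and highest in WT, at 12.2%. It was 5.85% in 2m AS and 5.51% in the mixed female library, so 5m AS was not lowest. Of the unfolded protein response list 4 of 12 were higher (median 0.34), with Hspa5, the chaperone BiP, at 838 scaled CPM in 5m AS and 436 in WT. In late treated against 5m AS 7 of 12 of that list were lower (-0.93), and in early treated against 5m AS 3 of 12 (-0.42). Of the heat shock and immediate early list 9 of 15 were higher in 5m AS against WT (0.74), and 9 and 10 of 15 were lower in early treated and late treated against 5m AS. Hspb1, a small heat shock protein gene, had 76.9 scaled CPM in early treated 5m AS and 24.9 in late treated 5m AS, with 229 in 5m AS, 29.1 in 2m AS, 45.4 in the mixed female library and 53.1 in WT.

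Antigen presentation genes were higher in 5m AS than in WT for 9 of 12 (median 0.70), and Cd74, the MHC class II invariant chain, had 679 scaled CPM in early treated 5m AS and 712 in late treated 5m AS, with 1913 in 5m AS, 386 in 2m AS, 484 in the mixed female library and 407 in WT. In 5m AS against WT, the osmolyte and tonicity list held 3 higher and 1 lower of 10 (median 0.22, other spots 0.36). Over all compared genes the shares were 11.2% and 12.8%. Over the collecting duct spots of 1 library, Spearman's rho of the summed injury list with the principal cell list was -0.03 to 0.46, and with the intercalated cell lists 0.11 to 0.58, over 160 to 327 spots that share a library. Ren1, the renin gene, had 51.2 scaled CPM in early treated 5m AS and 59.1 in late treated 5m AS, with 24.3 in 5m AS, 65.8 in 2m AS, 300.3 in the mixed female library and 242 in WT, so that each AS library lay below the mixed female library and WT.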
